A study of Mus musculus with 16 samples.

Results

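Hypothalamic RNA of mice lacking acid-sensing ion channel 1a (ASIC1a) was compared with that of wild-type (WT) mice early in the light phase, at zeitgeber time 1 (ZT1, 1 h after lights on). The comparison used the 4 libraries titled ASIC1a-/- and the 4 libraries titled WT at ZT1, which are 8 of the 16 RNA-seq libraries of the series. Of 55401 annotated genes, 15663 exceeded a CPM (the read count scaled to the library total) of 1 in 1 or more of these 8 libraries and were tested. All animals were untreated male C57BL/6 mice aged 3 months, bred from heterozygous parents and kept under 12 h of light and 12 h of dark. The ASIC1a-/- mice carried a global deletion, present during development as well as in the adult, so the comparison does not separate a loss in the hypothalamus from a loss elsewhere in the body. Each library came from the hypothalamus of another mouse (n = 4 per genotype), lifted out by hand after euthanasia with CO2. The remaining 8 libraries, collected at ZT13, entered the fit to estimate the spread between mice and are quoted only for comparison with ZT1.

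ASICs are trimeric sodium channels of neurons that open when the extracellular space becomes acidic, as it does around active synapses and in ischaemia. ASIC1a is the subunit that gives brain neurons most of their proton-gated current, alone or together with ASIC2. The hypothalamus holds the light-entrained clock of the suprachiasmatic nucleus and the neurons that set feeding, wakefulness, body temperature and the release of pituitary hormones.

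The gene Asic1 (ENSMUSG00000023017) lies on the plus strand of chromosome 15, from 99670368 to 99701130 in GRCm38, and GENCODE M21 lists 6 transcripts of it. Among these, 2 are annotated as protein coding and start from different exons. Asic1-201, with 4114 bases in 12 exons, begins at 99670368 and its open reading frame starts in exon 2. Asic1-205, with 1818 bases in 10 exons, begins downstream at 99692233 and its reading frame starts in exon 1. As background, the upstream start belongs to the ASIC1a form and the downstream start to ASIC1b, a splice form best known from sensory neurons. The first 150 coding bases of each are shown because the deposited counts are summed over both forms, so that a loss of one form leaves the reads of the other and of the shared exons in the same count. They are written 5′ to 3′ on the plus strand from the GENCODE M21 transcripts, with the start codon in capitals, and lie at chr15:99671800-99671949 for Asic1-201 and at chr15:99692371-99692520 for Asic1-205.
Asic1-201: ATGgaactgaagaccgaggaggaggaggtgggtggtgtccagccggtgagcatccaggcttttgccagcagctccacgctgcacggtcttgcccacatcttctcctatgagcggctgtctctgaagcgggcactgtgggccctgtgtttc
Asic1-205: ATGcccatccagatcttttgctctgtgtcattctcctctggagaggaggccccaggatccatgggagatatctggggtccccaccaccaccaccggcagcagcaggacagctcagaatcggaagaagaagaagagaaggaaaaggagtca

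The targeted gene was lower in every ASIC1a-/- library. Asic1 was measured at 104, 104, 106 and 101 CPM in the WT libraries and at 69.9, 64.9, 68.7 and 66.0 CPM in the ASIC1a-/- libraries. The groups did not overlap, and the 4 libraries of each genotype lay close together. Asic1 fell by 0.62 on the log2 scale (SE 0.028, 95% interval -0.68 to -0.57, adjusted p = 2.42e-10, edgeR quasi-likelihood test with Benjamini-Hochberg adjustment), which left a level 35.1% below WT. The deposited transcript length of the gene, which RSEM averages over the transcripts it assigns reads to, was 3382, 3249, 3197 and 3026 bases in WT and 1836, 1791, 1766 and 1862 bases in ASIC1a-/-. All 4 ASIC1a-/- values lay under all 4 WT values (exact permutation test, two-sided p = 0.0286, the smallest that 4 against 4 mice allow). Because TPM divides by that length, it ran the other way, with 61.8, 65.0, 67.6 and 68.2 TPM in WT and 79.0, 73.0, 82.8 and 72.8 TPM in ASIC1a-/- (exact permutation test, two-sided p = 0.0286). The count therefore places Asic1 lower and the length-scaled abundance places it higher in ASIC1a-/-, at log2 ratios of the group means of -0.62 and 0.23. The reads that remained were assigned to shorter transcripts than in WT, and which exons they cover is not given by gene-level values.

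**Figure D1:**
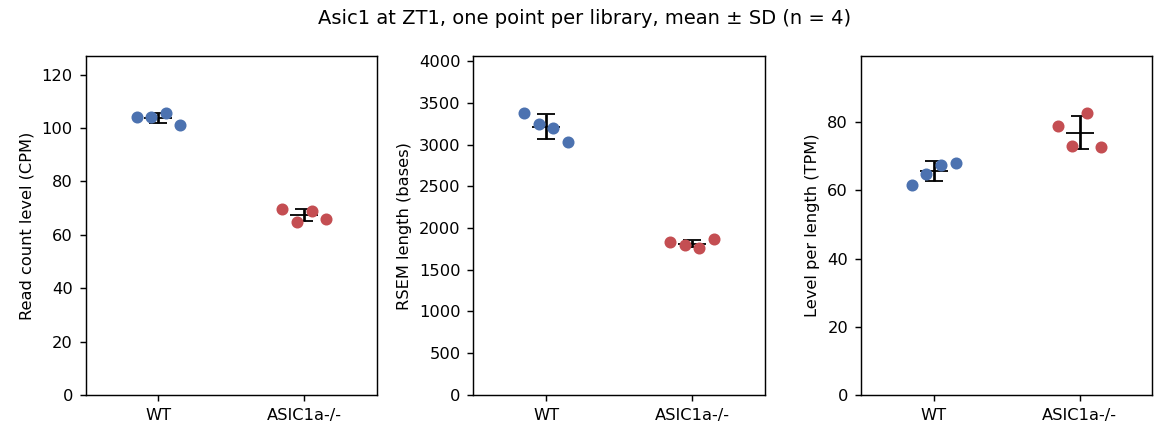
Asic1 in each ZT1 library by genotype, with the mean and SD (n = 4), as CPM, as RSEM transcript length in bases and as TPM. The ASIC1a-/- libraries sit at 64.9 to 69.9 CPM, under the WT range of 101 to 106 CPM, while their TPM range of 72.8 to 82.8 lies above the WT range of 61.8 to 68.2.

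The tissue carried its defining transcripts in every library, among them Trh at 75.0 to 96.5 CPM, Hcrt (the orexin precursor) at 85.6 to 159.5 CPM and Pomc at 40.7 to 59.7 CPM. The 8 libraries held 35058871 to 36316820 expected counts. Several libraries stood apart in markers of cell types or neighbouring regions, scored here as the mean log2 CPM of a marker list minus its mean over the 8 libraries. The library ASIC1a-/- 4 had a meninges and fibroblast score of 2.13 against -0.61 to 0.40 in the other 7, and also the highest mural cell (0.46), endothelial (0.23) and choroid plexus (0.65) scores. WT 4 had the highest thalamus score (0.60, with at most 0.056 elsewhere). ASIC1a-/- 2 had the highest oligodendrocyte score (0.25) and the lowest tanycyte score (-0.34), and with ASIC1a-/- 4 the highest midbrain dopamine neuron scores (0.86 and 0.88). For some genes the difference is given with and without 1 library. It is not given without a library for other genes whose difference also moved, among them Igf2, Ptgds, Gh, Prl, Sphk1, Gbx2, Th, Aldh1a1 and Chrna6. A difference given only for all libraries is therefore not shown to be stable. In bulk tissue, fewer cells of a type and less RNA per cell cannot be told apart.

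**Figure D2:**
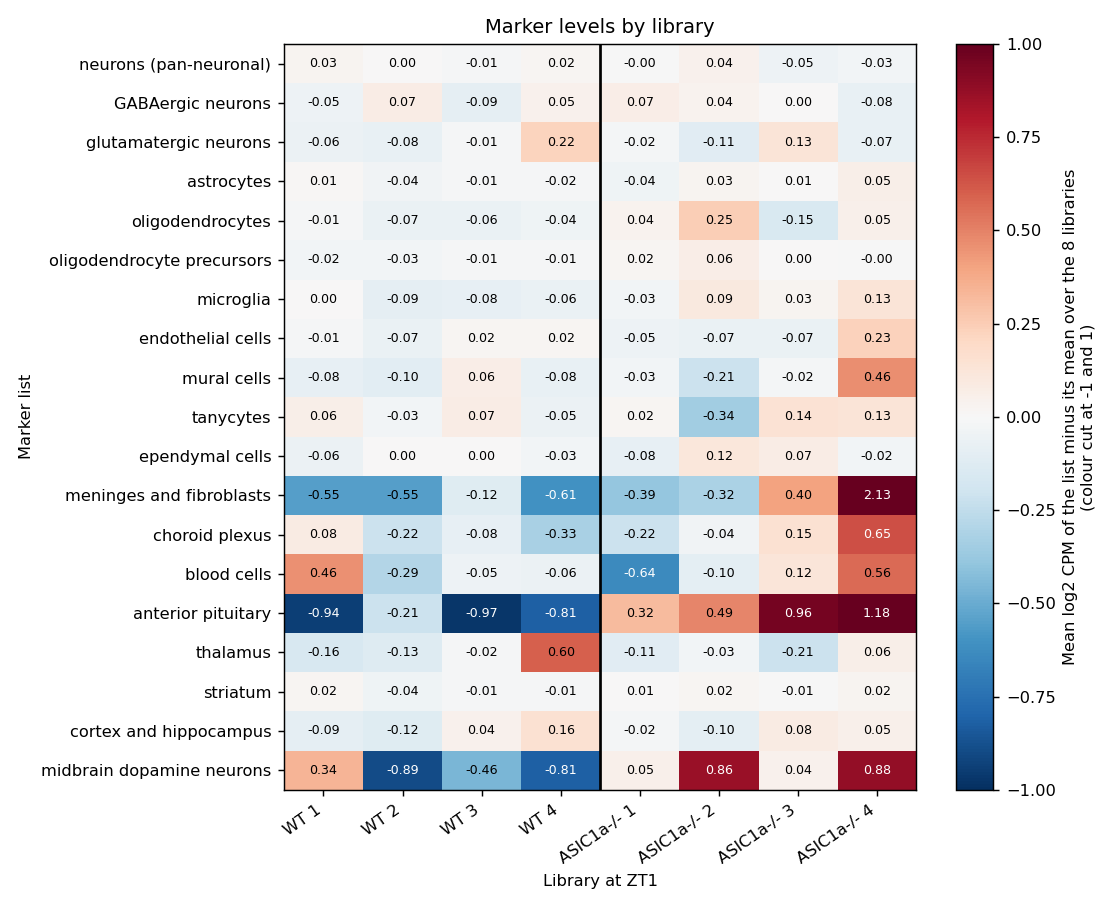
Marker list scores (mean log2 CPM of the list minus its mean over the 8 libraries, colour cut at -1 and 1) for each ZT1 library in columns and each cell type or neighbouring region in rows. ASIC1a-/- 4 is highest for meninges (2.13), WT 4 for thalamus (0.60), and the 4 ASIC1a-/- libraries are above the 4 WT libraries for anterior pituitary (0.32 to 1.18 against -0.97 to -0.21). Some of the pituitary markers passed the filter only through ASIC1a-/- libraries.

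For most genes the difference between genotypes at ZT1 was small. Of the 15663 genes tested, 2 passed an adjusted p under 0.05 (0.0128%), both lower in ASIC1a-/-, namely Asic1 and Krt90. Without adjustment, 1101 genes had a p under 0.05, of which 610 (3.89% of those tested) were higher and 491 (3.13%) lower in ASIC1a-/-. On log2(TPM + 1), where the median gene lay at -0.025, 23.4% of the genes under that p were higher, against 55.4% on the count scale. The log2 difference of 90.7% of genes was within 0.2. Of 142 genes beyond 1 on the log2 scale, 118 were higher in ASIC1a-/-, and without ASIC1a-/- 4 these were 43 higher and 30 lower. A mean under 1 CPM was found for 60 of the 142 genes and for 48 of the 118 higher ones. All 4 ASIC1a-/- libraries were above all 4 WT libraries for 226 genes (1.44%) and below them for 242 genes (1.55%). At ZT13 the same test called 14 genes (0.0894%) and 584 genes had an unadjusted p under 0.05 (3.73%). Of the 96 genes with an unadjusted p under 0.005 at ZT1, 65 had the same sign at ZT13 and 8 of these also had a p under 0.05 there.

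**Figure D3:**
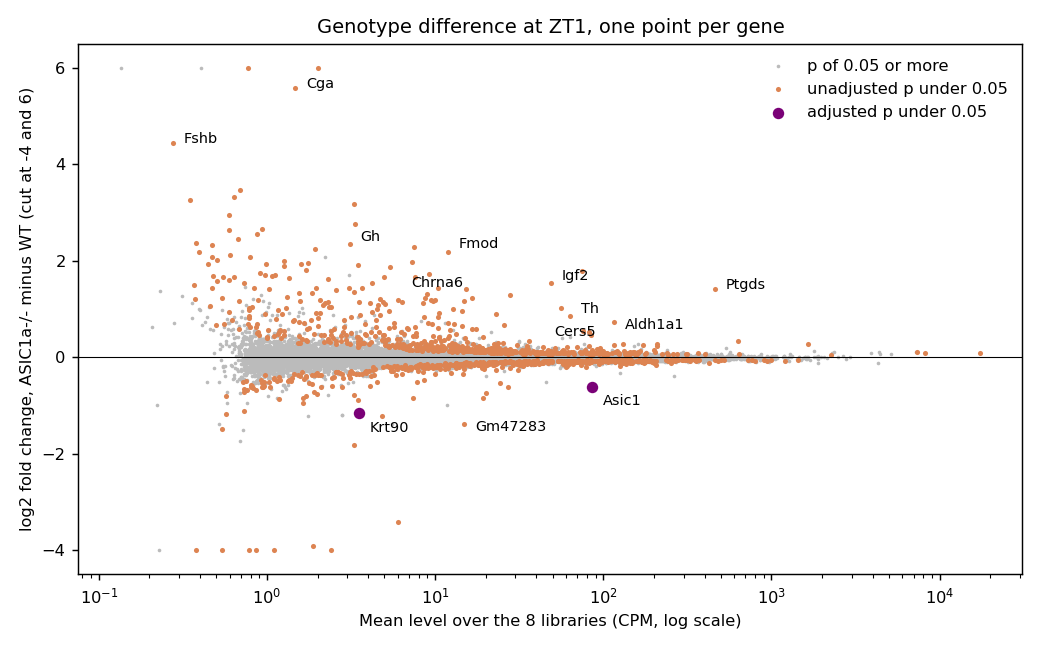
Log2 fold change (ASIC1a-/- minus WT, cut at -4 and 6) of each tested gene against its mean level over the 8 libraries (CPM, log scale). Most points lie within 0.2 of 0 (90.7%), and the 2 genes that passed the adjusted threshold, Asic1 at -0.62 and Krt90 at -1.17, lie below the line.

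Krt90 (ENSMUSG00000048699), a type II keratin, was the other gene that passed. It lies on chromosome 15 from 101552356 to 101562950, minus strand. It was measured at 5.10, 5.20, 4.58 and 4.56 CPM in WT and at 2.26, 1.82, 2.67 and 1.90 CPM in ASIC1a-/-. Every ASIC1a-/- library was under every WT library. Krt90 fell by 1.17 on the log2 scale (SE 0.14, adjusted p = 0.00182, edgeR with Benjamini-Hochberg adjustment), and leaving out WT 4, ASIC1a-/- 2 and ASIC1a-/- 4 together gave -1.01 (adjusted p = 0.306). At ZT13 its difference was -1.05 (adjusted p = 0.00124, edgeR). Of 26 listed keratin genes in the files, type II except for the type I gene Krt18, 6 were tested. Among these, 2 lay above 0 and 4, with Krt18 included, below. Krt80, also a type II keratin gene of chromosome 15, was at 0.223, 0.197, 0.309 and 0.171 CPM in WT and 0.335, 0.364, 0.778 and 2.46 CPM in ASIC1a-/-, with its high value in ASIC1a-/- 4 and a log2 difference of 2.11 (SE 0.61) for all libraries and 1.12 without ASIC1a-/- 4.

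Cers5 (ENSMUSG00000023021), a ceramide synthase encoded near Asic1 on the opposite strand (chromosome 15, 99734881 to 99772885), missed the adjusted threshold at ZT1. It was at 39.2, 42.2, 42.6 and 38.6 CPM in WT and 48.6, 47.5, 46.5 and 47.2 CPM in ASIC1a-/-. The ASIC1a-/- values were all higher than the WT values and varied less (SD 0.883 against 2.06 CPM). The log2 difference was 0.22 (SE 0.038) with an adjusted p of 0.0749 by edgeR and 0.00036 by DESeq2. With each library left out in turn, the adjusted p in edgeR ran from 0.0487 (without WT 3) to 0.505 (without WT 4). With the 8 ZT1 libraries alone it was 0.508 in edgeR. At ZT13 the log2 difference of Cers5 was 0.23 (adjusted p = 0.0109, edgeR). The smallest adjusted p of any further gene was 0.608.

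Within 1 Mb of Asic1, 46 genes were tested and 6 of them (13.0%) had an unadjusted p under 0.05, 2 higher and 4 lower, beside 7.03% of all genes. Of these 6, 4 had the same sign and a p under 0.05 at ZT13 too, as did 3.54% of the 1101 genes under that p at ZT1. Within 10 Mb the share was 12.2% of 148 genes, 9 in each direction. Faim2, an inhibitor of Fas-driven cell death in neurons, was at 818, 821, 835 and 817 CPM in WT and 794, 779, 778 and 758 CPM in ASIC1a-/-, without overlap, at -0.082 (SE 0.023) and -0.055 at ZT13. Racgap1, a regulator of cell division, was at 15.6 to 16.9 CPM in WT and 14.3 to 15.6 CPM in ASIC1a-/- with overlap, at -0.12 (SE 0.052) at ZT1 and -0.29 at ZT13 (adjusted p = 0.0395, edgeR). Gm49450 spread from 2.42 to 7.30 CPM in WT and 0.140 to 3.19 CPM in ASIC1a-/-, and RSEM's own SD for its count was 0.442 of the count, so its level is uncertain.

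None of the remaining genes with the smallest p passed the adjusted threshold (adjusted p of 0.608 to 0.675), and they are given for their values. Hira, a chaperone that places histone H3.3 on active genes, was at 49.5, 49.2, 44.4 and 49.4 CPM in WT and 57.0, 55.7, 53.7 and 52.5 CPM in ASIC1a-/-. The groups did not overlap and WT 3 was the lowest, at a log2 difference of 0.19 (SE 0.040) at ZT1 and -0.018 at ZT13. Xlr3a, an X-linked gene of a family of near-identical copies, was at 4.24, 6.94, 6.04 and 6.56 CPM in WT and 10.8, 7.92, 8.86 and 9.32 CPM in ASIC1a-/-, at 0.63 (SE 0.13), and its count may share reads with those copies. DESeq2 called Hira (adjusted p = 0.0245) and Xlr3a (adjusted p = 0.00796). It also called Gm13301 and Gm45837, which were at 0 in all 4 ASIC1a-/- libraries but also at 0 in 1 and 2 of the WT libraries, with at most 4.07 and 3.18 CPM in the others.

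Several further genes with a small p differed by little. Clasp2, which stabilises microtubule ends, was at 331, 339, 340.4 and 339 CPM in WT and 324, 312, 316 and 322 CPM in ASIC1a-/-, a log2 difference of -0.082 (SE 0.021) with no overlap. Recql, a DNA helicase, was at 18.6, 19.1, 18.4 and 18.6 CPM in WT and 17.5, 16.7, 16.8 and 16.4 CPM in ASIC1a-/-, also without overlap, at -0.15 (SE 0.039). Tmem179 was at 128 to 135 CPM in WT and 111 to 125 CPM in ASIC1a-/-, and Jagn1, an endoplasmic reticulum protein, at 21.5 to 23.8 and 24.1 to 25.7 CPM. The receptor tyrosine kinase Alk (-0.17, SE 0.045), the dynein light chain Dynlt1b (0.30, SE 0.072) and the synapse-forming protein Slitrk6 (-0.23, SE 0.061) overlapped because WT 1 lay with the ASIC1a-/- libraries. Without WT 1, 5 genes passed in edgeR, among them Dynlt1b (adjusted p = 0.0165) and Slitrk6 (adjusted p = 0.0459). That omission takes out the overlapping library, so the smaller p adds no separate evidence. With other libraries left out, the adjusted p of both genes reached 0.955 in edgeR. The mitochondrial gene mt-Atp6 was at 14.9, 14.98, 24.97 and 10.1 CPM in WT and 44.7, 44.8, 14.8 and 54.8 CPM in ASIC1a-/-, but RSEM's SD for its count was 5.54 times the count, so its level is uncertain. Its adjusted p in edgeR was 0.0104 without ASIC1a-/- 3, which lay with the WT libraries, and reached 0.933 with other libraries left out.

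Gene lists were described by how many members passed, by the sign of their differences and by the median log2 difference, which was -3.07e-05 over all tested genes. Apart from Asic1 and Krt90, no member of any of the 47 lists passed the adjusted threshold. The lists with the largest medians were markers of meninges, anterior pituitary and midbrain dopamine neurons, and the pathway lists stayed within 0.1 of 0.

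**Figure D4:**
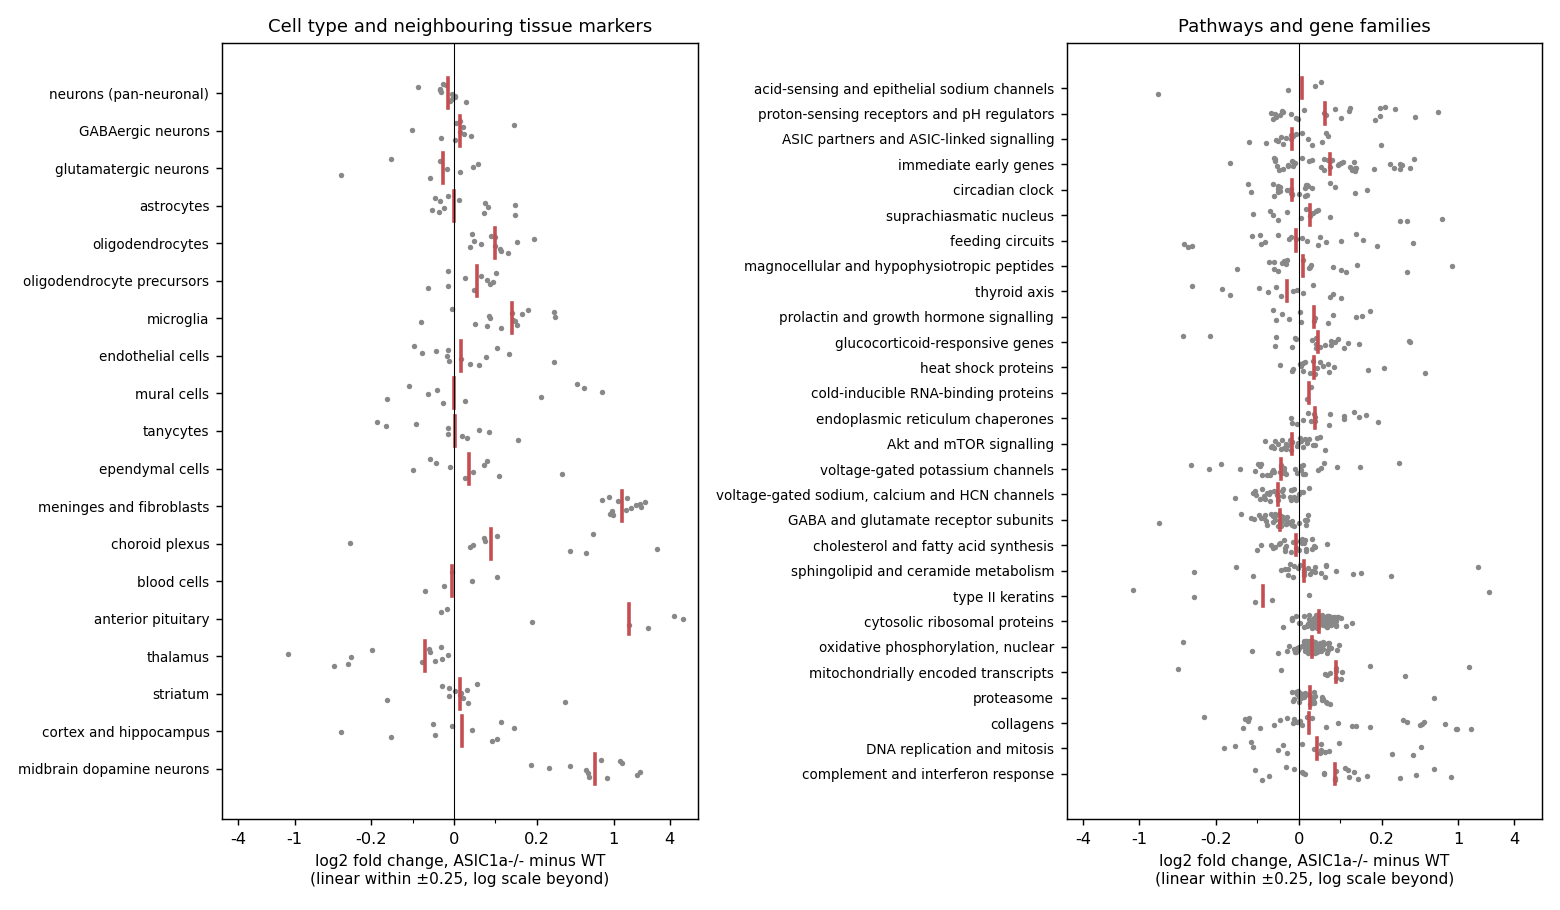
Log2 fold change (ASIC1a-/- minus WT at ZT1, linear within 0.25 of 0 and log scale beyond) of the tested members of each gene list, one point per gene with the list median marked, for cell type markers on the left and pathways on the right. The meninges (1.24), anterior pituitary (1.46) and midbrain dopamine neuron (0.64) medians stand furthest from 0, while the ribosomal list (0.048) and the receptor list (-0.045) are narrow and lie on opposite sides of it.

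None of the other acid-sensing and epithelial sodium channel genes passed the test. Asic2, the usual partner of ASIC1a in brain, was at 66.9, 67.6, 66.1 and 67.4 CPM in WT and 67.9, 65.4, 64.2 and 65.6 CPM in ASIC1a-/-. The groups overlapped, and the 95% interval of the log2 difference ran from -0.093 to 0.040. Asic4 was at 8.48 to 9.46 CPM in WT and 8.25 to 10.6 CPM in ASIC1a-/- (interval -0.15 to 0.23), and Scnn1a, the alpha subunit of the epithelial sodium channel, at 2.87 to 4.08 and 2.97 to 4.25 CPM (interval -0.24 to 0.34). On the TPM scale, which allows levels to be set between genes, Asic2 was at 46.6 to 48.1 TPM in WT, Asic4 at 7.00 to 7.91 TPM and Scnn1a at 1.91 to 2.76 TPM, and these 3 ranges did not overlap. Asic3, Asic5, Scnn1b and Scnn1g were under the filter on low values.

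Among 24 tested proton-sensing receptors and pH regulators, 0 passed, 14 lay above 0, and unadjusted p values under 0.05 were found for 3 higher and 1 lower genes (beside 3.89% and 3.13% of all genes, median 0.063, and 0.035 without ASIC1a-/- 4). The carbonic anhydrase Car2, found in oligodendrocytes among other cells, was at 161, 161, 151 and 157 CPM in WT and 165, 193, 158 and 168 CPM in ASIC1a-/-, highest in the library with the highest oligodendrocyte score, at 0.12 (SE 0.048) for all libraries and 0.057 without ASIC1a-/- 2. Car14, a membrane carbonic anhydrase, was at 12.5 to 13.5 CPM in WT and 13.4 to 15.9 CPM in ASIC1a-/-, at 0.20 (SE 0.092). The sodium-proton exchanger Slc9a2 was at 5.66, 5.51, 5.79 and 4.65 CPM in WT and 5.58, 6.30, 6.75 and 14.3 CPM in ASIC1a-/-, with a difference of 0.61 for all libraries and 0.20 without ASIC1a-/- 4, which held its highest value. Slc4a8, a sodium-driven chloride and bicarbonate exchanger on chromosome 15, was at 162 to 170.1 CPM in WT and 156 to 163 CPM in ASIC1a-/-, at -0.067 (SE 0.030).

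Most genes in the lists of ion channels and transmitter receptors lay below 0, though none passed the adjusted test. Of 40 GABA and glutamate receptor subunits, 36 were below 0 (median -0.045) and 7 had an unadjusted p under 0.05, all lower (beside 3.13% of all genes). Their summed level was 6143 to 6193 CPM in WT and 5956 to 6069.9 CPM in ASIC1a-/-, without overlap. Of 33 voltage-gated sodium, calcium and HCN channel genes, 29 were below 0 (median -0.050, 6 lower at an unadjusted p under 0.05), and the sums were 3594 to 3690.4 CPM in WT and 3452 to 3573 CPM in ASIC1a-/-. Of 34 voltage-gated potassium channel genes, 23 were below 0 (median -0.042, 6 lower), with sums of 2152 to 2175 CPM in WT and 2095 to 2134 CPM in ASIC1a-/-. All 3 sums kept the ASIC1a-/- libraries under the WT libraries, while 0 members of these lists passed the adjusted test.

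The members with the smallest p in these lists were separated by a few percent. Cacnb4, an auxiliary calcium channel subunit, was at 124, 121, 122 and 121 CPM in WT and 113, 113, 109 and 118 CPM in ASIC1a-/-. No library overlapped, and the log2 difference was -0.11 (SE 0.030) at ZT1 and 0.0029 at ZT13. Kcna2, a potassium channel of axons, was at 249.8 to 257 CPM in WT and 238 to 247 CPM in ASIC1a-/- (-0.071, SE 0.025), and Kcnq5, which carries an M-type current, at 34.0 to 36.1 and 31.4 to 33.6 CPM (-0.10, SE 0.032). Grin3a, an NMDA receptor subunit, was at 128 to 131 CPM in WT and 120.0 to 125 CPM in ASIC1a-/- (-0.084, SE 0.029), also without overlap. The metabotropic receptor Grm4 (-0.14, SE 0.041), the NMDA subunit Grin2b (-0.11, SE 0.041) and the sodium channel Scn8a (-0.081, SE 0.029) overlapped between genotypes. The synaptic vesicle protein Syn1, from the list of neuronal markers, was at 254, 256, 266 and 267 CPM in WT and 250.4, 252, 242 and 237 CPM in ASIC1a-/- (-0.087, SE 0.027), while the median of the 12 neuronal markers was -0.014.

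Ribosomal protein transcripts lay on the other side of 0. Of 76 cytosolic ribosomal protein genes, 71 were above 0 (median 0.048), 12 were higher at an unadjusted p under 0.05 and 0 lower (beside 3.89% and 3.13% of all genes), and 6 had all ASIC1a-/- libraries above all WT libraries (beside 1.44%). Rplp0 was at 159.8, 159, 151 and 157 CPM in WT and 164, 169, 165 and 167 CPM in ASIC1a-/-, at 0.088 (SE 0.025) with no overlap. Of 74 nuclear genes of oxidative phosphorylation, 63 were above 0 (median 0.032, 1 higher at an unadjusted p under 0.05). Of 34 proteasome genes, 28 were above 0 (median 0.026, and -0.0091 on log2(TPM + 1) beside -0.025 for all genes). Of 13 mitochondrially encoded transcripts, 11 were above 0 (median 0.090), with mt-Co1 at 16482 to 16879.8 CPM in WT and 16716 to 19036 CPM in ASIC1a-/-. Without WT 4, ASIC1a-/- 2 and ASIC1a-/- 4 the medians were 0.044 for ribosomal proteins, 0.0038 for the proteasome, 0.012 for oxidative phosphorylation and 0.0012 for mitochondrial transcripts.

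Transcript length moved with these lists. The median RSEM length of the members was 631 bases for ribosomal proteins and 657 bases for oxidative phosphorylation, but 4133, 4246 and 5837 bases for potassium channels, receptor subunits and the sodium, calcium and HCN channels. Among all genes with a mean of at least 1 CPM, the median log2 difference went down in steps with length, from 0.029 up to 1 kb, 0.0095 at 1 to 2 kb and -0.0066 at 3 to 5 kb to -0.019 over 5 kb. Of the shortest genes, 80 were higher and 19 lower at an unadjusted p under 0.05, while over 5 kb 45 were higher and 150 lower. The steepest libraries were ASIC1a-/- 2 (from 0.055 to -0.031) and WT 3 (from -0.044 to 0.025), and at ZT13 the shortest and longest bins were at -0.0057 and -0.0072. The part of transcript length in the differences of the ribosomal, channel and receptor lists was not tested.

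**Figure D5:**
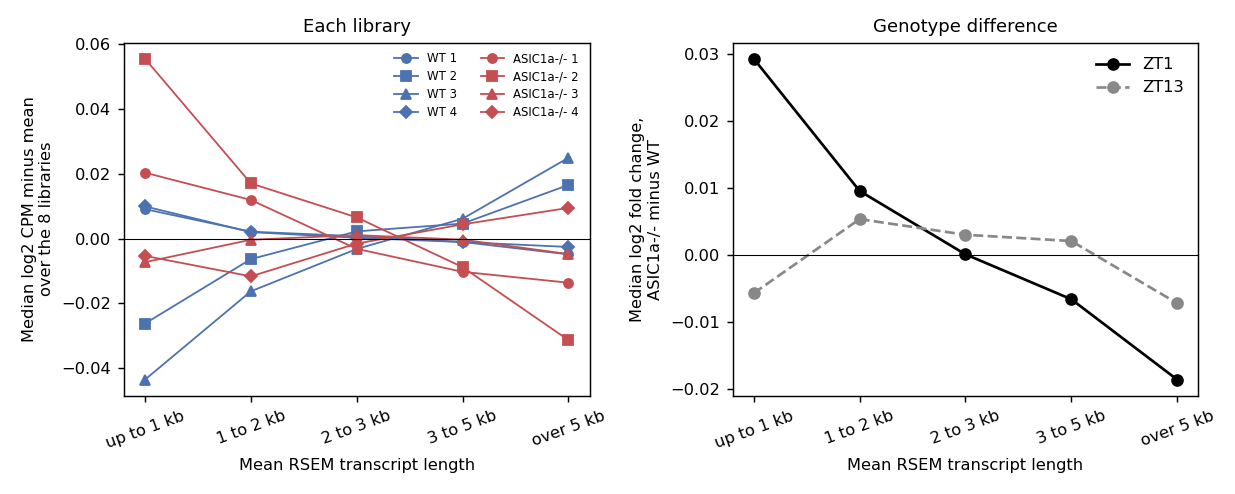
Left, median log2 CPM of genes in bins of RSEM transcript length, minus the mean over the 8 libraries, for each ZT1 library. Right, the median log2 difference between genotypes per bin at ZT1 and ZT13, which at ZT1 runs from 0.029 for genes up to 1 kb to -0.019 for genes over 5 kb.

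Most microglial markers lay above 0, but none passed the adjusted test and their scores overlapped between genotypes. Of 15 markers, 0 passed, 13 lay above 0 (median 0.14), 10 were higher at an unadjusted p under 0.05 (beside 3.89% of all genes), and 5 had every ASIC1a-/- library above every WT library (beside 1.44%). C1qc, a chain of the complement component C1q, was at 12.6, 11.7, 12.5 and 13.1 CPM in WT and 14.5, 14.9, 14.0 and 15.6 CPM in ASIC1a-/-, with a log2 difference of 0.24 (SE 0.061) and 0.068 at ZT13. The fractalkine receptor Cx3cr1 was at 42.7, 41.5, 39.3 and 42.4 CPM in WT and 46.4, 44.8, 44.4 and 43.9 CPM in ASIC1a-/- (0.11, SE 0.038), again without overlap. The integrin Itgam (17.6 to 18.8 against 18.9 to 21.5 CPM) and the adaptor Tyrobp (5.82 to 6.47 against 6.81 to 8.51 CPM) also kept the groups apart, whereas the protease Ctss overlapped. The microglial score ran from -0.090 to 0.0045 in WT and from -0.030 to 0.13 in ASIC1a-/-, with the highest values in ASIC1a-/- 2 and ASIC1a-/- 4. Without these and WT 4 the median was 0.060 and 2 markers had an unadjusted p under 0.05, beside 3.41% of all genes in that setting. This omission takes out the highest ASIC1a-/- libraries, so the smaller median adds no separate evidence. The summed level of the markers was 393 to 409.8 CPM in WT and 409.7 to 444 CPM in ASIC1a-/-.

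The medians of the oligodendrocyte and meningeal markers shrank when a single library was left out. All 12 oligodendrocyte markers were above 0 (median 0.10, 1 higher at an unadjusted p under 0.05 beside 3.89% of all genes). Their sums were 5877 to 6076 CPM in WT and 5521 to 7427 CPM in ASIC1a-/-, and without ASIC1a-/- 2 the median was 0.025. Mbp, a major protein of myelin, was at 1700.0, 1695, 1769 and 1723 CPM in WT and 1866, 2194, 1613 and 1864 CPM in ASIC1a-/-, so that ASIC1a-/- 2 was the highest and ASIC1a-/- 3 the lowest of the 8. All 14 markers of meninges and fibroblasts were above 0 (median 1.24, 12 higher at an unadjusted p under 0.05 beside 3.89% of all genes), with sums of 308 to 386 CPM in WT and 377 to 2081 CPM in ASIC1a-/-, and without ASIC1a-/- 4 the median was 0.34 and 0 had such a p. Ptgds, the prostaglandin D synthase of the leptomeninges, was at 244, 256, 282 and 230.3 CPM in WT and 285, 336, 508 and 1555 CPM in ASIC1a-/-, and Igf2 at 24.2, 23.4, 30.1 and 22.5 CPM in WT and 27.8, 33.2, 44.1 and 185 CPM in ASIC1a-/-. Both were highest in ASIC1a-/- 4, with ASIC1a-/- 3 next. Anxa1, an anti-inflammatory annexin, followed the same order, at 2.37, 2.05, 2.13 and 1.31 CPM in WT and 2.71, 3.41, 5.11 and 10.2 CPM in ASIC1a-/-, at 1.44 (SE 0.34) for all libraries and 0.93 without ASIC1a-/- 4, and Sphk1, a kinase of the sphingolipid pathway, was at 0.614, 0.618, 0.646 and 0.741 CPM in WT and 1.12, 1.15, 1.25 and 4.64 CPM in ASIC1a-/-. The endothelial (median 0.016), mural (0.00081), astrocyte (-0.00050), tanycyte (0.0029) and ependymal (0.036) lists lay near 0. On log2(TPM + 1) the endothelial and tanycyte medians were -0.021 and -0.034, near the median of all genes on that scale (-0.025).

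Transcripts of anterior pituitary cells were scarce, and the score of the list was higher in all ASIC1a-/- libraries (0.32 to 1.18) than in the WT libraries (-0.97 to -0.21). Its members Cga, Fshb and Prl were over 1 CPM at ZT1 only in ASIC1a-/- libraries, so the filter admitted them through the group where they were high. The separation of the scores and the median of the list therefore cannot serve as evidence of a difference. Of 12 markers, 7 were tested and 0 passed, with 3 higher at an unadjusted p under 0.05 (beside 3.89% of all genes, median 1.46, and 0.81 without WT 4, ASIC1a-/- 2 and ASIC1a-/- 4). The sum of the list, most of it Pomc and Chgb, which neurons also express, was 282 to 292 CPM in WT and 289 to 304 CPM in ASIC1a-/-. Cga, the alpha subunit shared by the glycoprotein hormones, was at 0.0837, 0.0281, 0.0843 and 0.0285 CPM in WT and 0.698, 0.196, 4.33 and 6.30 CPM in ASIC1a-/-. Gh, growth hormone, was at 0.474, 2.67, 0.253 and 0.684 CPM in WT and 3.07, 11.5, 3.31 and 2.97 CPM in ASIC1a-/-, highest in ASIC1a-/- 2, and Fshb at 0, 0.0562, 0.0281 and 0 CPM in WT and 0.140, 0.0840, 0.750 and 1.15 CPM in ASIC1a-/-. These 3 genes did not overlap between genotypes, beside 1.44% of all genes with every ASIC1a-/- library above every WT library. Cga and Fshb were tested only through ASIC1a-/- libraries, which favours such a split. Prl, prolactin, overlapped, at 0.139, 0.787, 0.169 and 0.485 CPM in WT and 0.837, 2.38, 0.444 and 0.700 CPM in ASIC1a-/-. At ZT13 the order was opposite for Gh (-2.74), Prl (-3.84), Cga (-0.74) and Fshb (-1.72), none of which reached an adjusted p under 0.05 there in edgeR. The difference between the genotype differences at ZT1 and ZT13 had unadjusted p values of 7.54e-05 for Gh, 0.000199 for Prl and 0.00111 for Fshb, with adjusted p of 0.232, 0.312 and 0.827 in edgeR. That difference passed the adjusted threshold for Gh in DESeq2, in edgeR with the replicate block and in edgeR with every gene of at least 1 count, and for Prl in the last of these. Pou1f1, the factor that defines several of these cells, was at 0 in all libraries, and Lhb, Tshb and Ghrhr were among those under the filter.

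Markers of midbrain dopamine neurons, which border the posterior hypothalamus, were all above 0. Of 12 tested, 8 had an unadjusted p under 0.05 (beside 3.89% of all genes that were higher at that p), with a median of 0.64, 0 passed, and the summed level was 264 to 526 CPM in WT and 436 to 773 CPM in ASIC1a-/-. Th, the first enzyme of dopamine synthesis, is also on the list of magnocellular and hypophysiotropic peptides of the hypothalamus, so it is not particular to the midbrain. Th was at 70.9, 36.2, 39.5 and 33.6 CPM in WT and 63.0, 102, 56.1 and 104 CPM in ASIC1a-/-. WT 1 overlapped with the ASIC1a-/- libraries, and ASIC1a-/- 2 and ASIC1a-/- 4 were the highest. The vesicular monoamine transporter Slc18a2 (0.53, SE 0.14), the aromatic amino acid decarboxylase Ddc (0.54, SE 0.14), the retinaldehyde dehydrogenase Aldh1a1 (0.73, SE 0.19) and the nicotinic subunit Chrna6 (1.22, SE 0.39) likewise had ASIC1a-/- 2 and ASIC1a-/- 4 as the highest libraries and WT 1 as the highest of WT. Gch1, which makes the cofactor of Th, was at 4.63, 3.96, 4.27 and 3.79 CPM in WT and 5.05, 6.30, 4.69 and 7.05 CPM in ASIC1a-/-, without overlap. Without WT 4, ASIC1a-/- 2 and ASIC1a-/- 4 the median was 0.23 and 0 markers had an unadjusted p under 0.05, beside 3.41% of all genes in that setting. That omission was chosen after seeing the data and takes out the highest ASIC1a-/- libraries, so the smaller median adds no separate evidence. Thalamic markers had 0 of 12 above 0 (median -0.069), and without WT 4 the median was 0.031. Gbx2, a factor of thalamic development, had its high value in WT 4, at 0.530, 0.422, 0.477 and 1.77 CPM in WT and 0.363, 0.392, 0.222 and 0.420 CPM in ASIC1a-/-. The parts of the dissection's borders and of dopamine neurons within the hypothalamus in these differences were not tested.

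Hypothalamic peptides and the circuits they mark differed little. Of 21 feeding genes tested, 0 passed and 1 in each direction had an unadjusted p under 0.05 (beside 3.89% of all genes higher and 3.13% lower). Npy, an appetite-promoting peptide, was at 23.9, 24.1, 27.0 and 25.3 CPM in WT and 25.6, 17.9, 22.1 and 17.2 CPM in ASIC1a-/-, with overlap through ASIC1a-/- 1, at -0.27 (SE 0.096), and its partner Agrp was at 3.22 to 4.27 and 2.18 to 3.63 CPM, at -0.30 (SE 0.15) for all libraries and -0.17 without ASIC1a-/- 2. Npy1r, a receptor for Npy, was at 18.5 to 20.9 CPM in WT and 19.0 to 23.9 CPM in ASIC1a-/- (0.16, SE 0.062). Hcrt, which sustains wakefulness, was at 131, 147, 126 and 159.5 CPM in WT and 135, 116, 111 and 85.6 CPM in ASIC1a-/-, lowest in ASIC1a-/- 4, at -0.33 (SE 0.16) for all libraries and -0.22 without ASIC1a-/- 4. Gal, the inhibitory peptide galanin, was at 24.4, 24.8, 22.1 and 23.3 CPM in WT and 26.2, 25.1, 28.0 and 25.04 CPM in ASIC1a-/-, without overlap, at 0.14 (SE 0.053). Avp, vasopressin, overlapped, at 23.5 to 34.6 and 31.5 to 45.4 CPM.

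The thyroid axis, which sets metabolic heat, had 0 of 14 genes past the threshold and 1 lower at an unadjusted p under 0.05 (beside 3.13% of all genes). Trh, the releasing hormone at its head, was at 75.8, 96.4, 75.9 and 80.1 CPM in WT and 85.9, 96.5, 94.7 and 75.0 CPM in ASIC1a-/-. The ranges overlapped widely, and the interval of the log2 difference was -0.11 to 0.31. Hr, a co-repressor induced by thyroid hormone, was at 32.02, 29.5, 38.8 and 36.3 CPM in WT and 31.1, 23.5, 30.2 and 28.1 CPM in ASIC1a-/-, at -0.27 (SE 0.080, adjusted p = 0.675, edgeR). Of 26 clock genes, 0 passed and 1 in each direction had an unadjusted p under 0.05 (beside 3.89% of all genes higher and 3.13% lower, median -0.017). These were Cry1, a repressor of the clock, at 21.3, 20.2, 21.2 and 20.95 CPM in WT and 23.4, 22.7, 24.9 and 20.9 CPM in ASIC1a-/-, and Nr1d1, which encodes REV-ERB alpha, at 56.6, 62.3, 68.0 and 66.8 CPM in WT and 58.1, 56.1, 61.4 and 58.7 CPM in ASIC1a-/-. Both overlapped, at 0.14 (SE 0.059) and -0.11 (SE 0.050). The 15 markers of the suprachiasmatic nucleus had a median of 0.026 (-0.0025 on log2(TPM + 1) beside -0.025 for all genes) and 0 with an unadjusted p under 0.05. Their scores were -0.29 to 0.22 in WT, a spread that enclosed the ASIC1a-/- values.

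Immediate early genes, which neurons switch on within minutes of activity, overlapped between genotypes at ZT1 for most of the members described here. Of 41 tested, 0 passed, 28 were above 0 and 2 were higher at an unadjusted p under 0.05 (beside 3.89% of all genes, median 0.075, and 0.29 at ZT13). The score of the list kept the genotypes apart, at -0.049 to -0.011 in WT and -0.0013 to 0.065 in ASIC1a-/-. Its summed level overlapped, at 616 to 649 CPM in WT and 623 to 644 CPM in ASIC1a-/-. Egr1, a zinc finger factor, was at 18.6, 20.5, 22.5 and 19.4 CPM in WT and 24.1, 22.5, 24.3 and 20.9 CPM in ASIC1a-/- at ZT1, with overlap, at 0.18 (SE 0.079), and at 23.3 to 29.1 CPM in WT and 56.9 to 71.0 CPM in ASIC1a-/- at ZT13. The test of the difference between times called 3 of 15663 genes (0.0192%), each with a smaller or lower genotype difference at ZT1. These were Egr1 (by -1.09, adjusted p = 0.000128), the orphan receptor Nr4a1 (by -1.02, adjusted p = 0.00141) and the mTOR inhibitor Ddit4 (by -0.45, adjusted p = 0.00163) in edgeR. Nr4a1 and Ddit4 were chosen after their values were seen. At ZT1, Nr4a1 was at 9.93, 9.30, 10.7 and 10.01 CPM in WT and 11.4, 10.3, 12.1 and 10.2 CPM in ASIC1a-/-, and Ddit4 at 18.7 to 20.8 and 18.4 to 19.4 CPM, with overlap in both. Fos at ZT1 was at 6.05, 7.28, 6.63 and 6.13 CPM in WT and 6.25, 8.82, 6.58 and 7.00 CPM in ASIC1a-/-, Fosb at 1.37 to 1.74 and 0.972 to 1.90 CPM, Junb at 4.13 to 5.47 and 4.78 to 6.61 CPM, and Nr4a3 at 4.91 to 6.61 and 6.05 to 6.64 CPM, all overlapping. Dusp4, a phosphatase that switches off MAP kinases, kept the groups apart, at 4.57, 4.84, 4.04 and 4.82 CPM in WT and 4.88, 6.13, 5.58 and 5.15 CPM in ASIC1a-/- (0.25, SE 0.10).

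Stress and signalling lists stayed close to 0. Of 17 endoplasmic reticulum chaperones, 0 passed, 14 were above 0 and 4 were higher at an unadjusted p under 0.05 (beside 3.89% of all genes, median 0.039), among them Dnajc3 at 82.7 to 95.8 CPM in WT and 92.3 to 104 CPM in ASIC1a-/- and Manf at 40.1 to 44.0 and 42.5 to 47.8 CPM. Without WT 4, ASIC1a-/- 2 and ASIC1a-/- 4 the median was -0.0045. Dnajb1, a heat shock protein, was at 58.2, 58.4, 53.1 and 55.4 CPM in WT and 59.5, 73.3, 63.2 and 63.7 CPM in ASIC1a-/-, with no overlap and its highest value in ASIC1a-/- 2, at 0.21 (SE 0.082). Of 22 glucocorticoid-responsive genes, 2 were higher and 1 lower at an unadjusted p under 0.05 (beside 3.89% and 3.13% of all genes) and 0 passed. Errfi1, a feedback inhibitor of EGF receptors, was at 27.1, 26.3, 23.9 and 26.5 CPM in WT and 27.2, 29.2, 27.4 and 30.9 CPM in ASIC1a-/-, and the metal-binding Mt1 at 44.6 to 48.5 and 49.2 to 53.8 CPM, both without overlap. Of 29 Akt and mTOR signalling genes, 0 passed and 2 were lower at an unadjusted p under 0.05 (beside 3.13% of all genes), Tsc1 (-0.066, SE 0.028) and Rptor (-0.060, SE 0.027). Of 29 genes of sphingolipid and ceramide metabolism, 3 were higher at an unadjusted p under 0.05 (beside 3.89% of all genes). Their median was 0.012, and -0.011 on log2(TPM + 1) beside -0.025 for all genes. Cers4, another ceramide synthase, was at 113 to 131 CPM in WT and 104 to 117 CPM in ASIC1a-/-, at -0.11 (SE 0.052) for all libraries and -0.072 without WT 3, on the other side of 0 from Cers5.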

How the data were processed

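RNA-seq of the hypothalamus was analysed from 8 libraries at ZT1, with the 8 at ZT13 in the same fit. Per the labels, the submitters used cutadapt 1.8, STAR 2.5.3a, HTSeq 0.9.1 and RSEM 1.2.31, and name both GRCm38 and mm9. The deposited expected counts are RSEM estimates per gene made by the authors and not normalized, and the deposited TPM values were scaled by the authors to length and library total. Expected counts were rounded, scaled by TMM and tested with edgeR 4.0.16 (quasi-likelihood F test, 4 group means, 12 residual degrees of freedom) in R 4.3.3 on genes over 1 CPM in at least 1 of the 8 libraries, with Benjamini-Hochberg adjustment over all 15663. Symbols are those of GENCODE M21. Alternatives used DESeq2 1.42.0, limma 3.58.1 on counts and on log2(TPM + 1) or log2(TPM + 0.1), other filters and scalings, a replicate block and the omission of libraries. Genes named were those called by any tool, the 15 with the smallest p in each direction, genes within 1 Mb of Asic1, genes the study names, and leading members of each list, from which the text takes a part. The members and lists were chosen with earlier results of these data known. Methods and labels name different extraction and library kits, which the values cannot settle. Libraries of 1 group were never copies of each other, as their counts gave a chi-square of 3.19 to 11.4 per degree of freedom. Total expected counts leave counting error small except for genes near 0, so the spread between 4 mice sets the precision.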

Additional observations from a re-analysis of the deposited data

Results flagged for a closer look

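Single libraries lay far from the other 3 of their group, by Dixon's 95% criterion, in 24 of 300 sets of 4 examined (8%), where chance alone gives about 1 in 20. In ASIC1a-/- 4 these were Slc9a2 at 14.3 CPM, Fmod at 54.9 CPM, Igf2 at 185 CPM, Vtn at 105 CPM and Sphk1 at 4.64 CPM, beside the scores of endothelial cells (0.23), pH regulators (0.11) and Akt and mTOR signalling (0.019). In ASIC1a-/- 2 they were Gh at 11.5 CPM and the scores of sodium, calcium and HCN channels (-0.081) and of cholesterol and fatty acid synthesis (0.031). In WT 1 they were Dynlt1b at 25.2 CPM, Slitrk6 at 17.5 CPM, Th at 70.9 CPM, Cacnb4 at 124 CPM and the score of prolactin and growth hormone signalling (0.024). In WT 3 they were Hira at 44.4 CPM and the scores of mural cells (0.064), meninges (-0.12) and sphingolipid metabolism (-0.042). In WT 4 they were Tmem179 at 128 CPM, Gbx2 at 1.77 CPM and the immediate early gene score (-0.011), and in WT 2 Tyrobp at 5.82 CPM.

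The genotype difference at ZT1 differed from that at ZT13, by the interaction term of edgeR after Benjamini-Hochberg adjustment, for Egr1 (-1.09 on the log2 scale), Nr4a1 (-1.02) and Ddit4 (-0.45). All 4 ASIC1a-/- libraries of ZT13 were above all 4 WT libraries of ZT13 for these genes, while at ZT1 the groups overlapped.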

How the results depend on the processing

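Asic1 and Krt90 were the 2 genes called in the reported analysis. The number called was 7 with DESeq2, 1 (Krt90) with limma on log2(TPM + 1) and 1 with log2(TPM + 0.1), 2 to 5 when each library was left out in turn (5 without WT 1), 1 (Asic1) without WT 4, ASIC1a-/- 2 and ASIC1a-/- 4, and 96 at an unadjusted p under 0.005. Other filters, scalings, limma-voom and unrounded counts called 2. The log2 difference of Asic1 ranged from -0.64 to -0.61 when libraries were left out and turned to 0.22 and 0.23 on log2(TPM + 1) and log2(TPM + 0.1), where the ratio of group means is 0.23, because TPM divides by the shorter RSEM length. The 3 genes whose difference changed between times became 12 with every gene of at least 1 count, 12 with DESeq2, 2 on both TPM scales and 3 to 5 when libraries were left out (5 without WT 2). Signs turned for 4 genes near 0. These were Asic4 (-0.037 to 0.089 when libraries were left out, lowest without ASIC1a-/- 2, and -0.042 without WT 4, ASIC1a-/- 2 and ASIC1a-/- 4), Scnn1a (-0.039 to 0.14 when libraries were left out, below 0 without WT 1 or ASIC1a-/- 3), Fos (-0.052 without WT 4, ASIC1a-/- 2 and ASIC1a-/- 4) and Fosb (-0.022 and -0.061 on the TPM scales, -0.045 to 0.23 when libraries were left out, below 0 without ASIC1a-/- 1 or ASIC1a-/- 4, -0.052 without WT 4 and ASIC1a-/- 4, -0.092 without these and ASIC1a-/- 2). Of 47 list medians, 12 moved by more than 1 SD in at least 1 setting. The settings without 2 or 3 libraries and the length bins were chosen after seeing the data.

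Libraries of the same replicate number at ZT1 did not deviate together (r of -0.16, 0.011, 0.098 and -0.11), so no pairing of the mice by number was seen. These values cannot exclude a weak pairing, and ZT13 was not examined. With the replicate block 2 genes were called, Asic1 was at -0.62, and 5 genes had a difference that changed between times.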
